A study of Mus musculus with 4 samples.

Results

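Accessibility was compared at the genes of 4 cytokines that signal through STAT3, Lif, Osm, Il6 and Il10, and of 2 genes that STAT3 switches on, Socs3 and Pim1. The measurements were ATAC-seq in RAW macrophages, a mouse cell line, with 2 untreated control samples and 2 samples given 5 mM MCD (methyl-β-cyclodextrin) for 1 hr. MCD is a ring of sugars that pulls cholesterol from the plasma membrane. In ATAC-seq the Tn5 transposase inserts adapters where DNA is exposed, so the number of reads over an interval stands for how open it is. The authors' deposited table holds 3812 intervals of 201 bp that were selected on their difference between these same conditions. Of these, 14 lay closer to the transcription start site (TSS) of a member of the group than to that of any other gene considered, 5 at Il10, 3 at Osm, 2 each at Socs3 and Pim1, and 1 each at Lif and Il6. No member was without one. Of the 22384 genes considered, 11.7% had at least 1 listed interval. The members were chosen with earlier results of these data known, so their count is no finding about the group. The control samples had no treatment per the labels. The labels give the MCD medium as holding BSA and do not say whether the control medium did. The paper's general methods for these cells describe treatments in a medium with BSA and water as the negative control. Its ATAC-seq methods call the controls untreated. All samples came from the one line, and the labels do not say whether samples 1 and 2 of a condition were separate cultures. The line's name has its digits in a different order in the labels than in the paper.

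IL-6, LIF and oncostatin M (OSM) belong to one cytokine family. Each binds its own receptor chain and shares the signalling chain gp130, encoded by Il6st. IL-10 uses a separate receptor, made of the chains IL-10Rα and IL-10Rβ. In both cases JAK kinases on the receptor phosphorylate STAT3, which then enters the nucleus. Macrophages make IL-6 and OSM as inflammatory signals and IL-10 as an anti-inflammatory one. SOCS3 binds gp130 and the JAKs and shuts off IL-6 signalling, while PIM1 is a kinase that promotes survival and growth.

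All 14 intervals had more reads after MCD, as did 73.2% of all listed intervals. Whole read numbers per library could be recovered from the authors' condition means, as described in the processing account, so a value is given for each of the 4 libraries. The libraries of a condition could not be matched to their sample numbers. They are called deeper and shallower by their relative depth, which was 0.946 and 0.877 in the control libraries and 1.147 and 1.029 in the MCD libraries, as multiples of the mean of the 4. Relative depth is taken from the recovered scaling constants, and the absolute depth is unknown. Values are normalized reads, that is, reads divided by that relative depth. Differences are the log2 of the MCD mean over the control mean. Because the intervals were chosen by this comparison, the values are a description and no test was made of them. An exact permutation test of 2 samples against 2 could in any case not give a two-sided p below 0.333.

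Reference sequences (GRCm38, plus strand) are shown for 6 of the 14 intervals. They hold the interval with the largest difference, the sole Il6 interval, the sole interval with a STAT motif, the one with the most motif matches, and the interval with the larger difference at Socs3 and Pim1. Capitals mark AP-1 (TGANTCA), STAT (TTCCNGGAA) and κB motifs found on either strand. The Lif stretch, chr11:4263004-4263303, is the listed interval with 41 bases before it and 58 after, and all of its capitals lie outside the interval. The others are the listed intervals at chr5:29951006-29951206 (Il6), chr1:131028021-131028221 and chr1:131038113-131038313 (the third and the fourth of Il10), chr11:117932349-117932549 (the first of Socs3) and chr17:29440085-29440285 (the second of Pim1).
Lif: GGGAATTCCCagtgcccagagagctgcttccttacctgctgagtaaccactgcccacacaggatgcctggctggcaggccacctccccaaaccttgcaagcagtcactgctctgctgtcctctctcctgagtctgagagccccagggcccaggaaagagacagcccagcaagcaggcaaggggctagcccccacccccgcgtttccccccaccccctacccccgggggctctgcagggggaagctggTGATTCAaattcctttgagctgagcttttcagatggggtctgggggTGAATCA
Il6: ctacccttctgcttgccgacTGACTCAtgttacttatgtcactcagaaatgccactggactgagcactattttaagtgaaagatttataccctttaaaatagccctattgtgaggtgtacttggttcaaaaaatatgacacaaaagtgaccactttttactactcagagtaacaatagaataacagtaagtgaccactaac
Il10, interval 3: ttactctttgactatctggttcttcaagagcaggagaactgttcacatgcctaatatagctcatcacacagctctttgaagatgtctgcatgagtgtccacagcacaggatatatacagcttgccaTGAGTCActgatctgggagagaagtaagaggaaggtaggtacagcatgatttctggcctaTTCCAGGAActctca
Il10, interval 4: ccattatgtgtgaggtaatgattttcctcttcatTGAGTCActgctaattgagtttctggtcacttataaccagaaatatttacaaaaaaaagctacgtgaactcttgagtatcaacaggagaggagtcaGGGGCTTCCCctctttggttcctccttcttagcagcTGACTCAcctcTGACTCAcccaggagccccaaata
Socs3, interval 1: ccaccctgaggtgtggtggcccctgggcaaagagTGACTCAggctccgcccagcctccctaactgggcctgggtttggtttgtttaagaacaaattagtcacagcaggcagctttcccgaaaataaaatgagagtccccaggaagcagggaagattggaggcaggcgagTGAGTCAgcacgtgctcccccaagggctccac
Pim1, interval 2: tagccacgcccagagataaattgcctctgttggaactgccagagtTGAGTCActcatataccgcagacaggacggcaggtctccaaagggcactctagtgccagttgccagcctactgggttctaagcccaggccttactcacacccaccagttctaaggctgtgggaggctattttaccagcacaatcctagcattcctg

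Lif had the largest difference of the 14. Its interval, chr11:4263045-4263245, lies 3850 bp upstream of the nearest Lif TSS among the transcripts used, and 3551 bp upstream of that of a Lif transcript with no Entrez ID. It is also in intron 1 of a longer Lif transcript, whose start is 5488 bp away on the other side. Normalized reads were 8.45 and 12.5 in the deeper and the shallower control library, and 65.4 and 69.0 in the deeper and the shallower MCD library. The MCD libraries were thus close to each other and far above both controls. The means were 10.5 and 67.2, a log2 difference of 2.68 or 6.40-fold, and 97.7% of the intervals that were higher after MCD had a smaller difference. The control level rests on only 19 reads in both libraries together, against 146 after MCD. From these summed reads the ratio was 6.44, with an exact 95% interval of 3.98 to 11.0. This interval, from Clopper-Pearson limits, covers counting error only, as do the others given here. These limits take no account of the selection of the listed intervals on this same difference. Limits above equal levels are therefore no support for the difference.

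Osm lies next to Lif on chromosome 11, with 30675 bp between the starts used, and their 4 intervals spanned 33295 bp. The first and the second Osm interval are in intergenic DNA 6269 and 3460 bp upstream of the Osm TSS, and the third is in the untranslated part of exon 3, 3847 bp downstream. At the first, chr11:4229951-4230151, the control libraries had 29.6 and 17.1 normalized reads and the MCD libraries 75.8 and 66.1. The log2 difference was 1.60, and the gap between its control libraries, 0.79 on the log2 scale, was the largest between replicates at any of the 14. At the second, chr11:4232760-4232960, the values were 107.8 and 123.1 in control and 231.0 and 191.4 after MCD, a log2 difference of 0.87. At the third, chr11:4240267-4240467, they were 47.6 and 67.3 in control and 122.9 and 115.6 after MCD, a log2 difference of 1.05. The most open Osm interval in control cells had the smallest difference of the 3, and the least open had the largest. Beyond Lif, 27322 and 36147 bp past its end, are 2 more listed intervals that were assigned to the predicted gene Gm11959. Both were higher after MCD, with log2 differences of 1.62 and 2.36.

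The Il6 interval, chr5:29951006-29951206, is intergenic and 61908 bp upstream of the TSS, the farthest of the 14. It had 14.8 normalized reads in each control library and 35.7 and 46.6 in the deeper and the shallower MCD library. This was the lowest MCD level of the group, and with means of 14.8 and 41.2 the log2 difference was 1.48. The summed reads were 27 and 89, and their ratio of 2.76 had an interval of 1.78 to 4.42.

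Il10 had the most intervals. All 5 lie downstream of its TSS on chromosome 1, the first in intron 3 at 1659 bp and the others past the end of the gene, up to 19764 bp from the TSS. Measured to the TSS of the assigned gene, the first is the one interval of the 14 within the 3 kb that the authors used for promoters. Of all intervals higher after MCD, 10.8% were within it. The first Il10 interval had 72.9 and 51.3 normalized reads in control and 142.9 and 132.1 after MCD, a log2 difference of 1.15. The second, 6063 bp from the TSS, had 70.8 and 78.7 in control and 155.1 and 131.2 after MCD, a difference of 0.94. The third, at 8176 bp, had 28.5 and 21.7 in control and 71.5 and 48.6 after MCD, a difference of 1.26 that was the largest at this gene. At the fourth, 18268 bp away, control cells already had 143.7 and 165.3, the highest control values of the group, and MCD libraries had 239.7 and 217.6. Its log2 difference of 0.57 was the smallest of the 14, and only 0.502% of the intervals higher after MCD had a smaller one. The fifth, at 19764 bp, had 27.5 and 34.2 in control and 68.0 and 70.9 after MCD, a difference of 1.17. The 5 Il10 intervals therefore covered a wide range of control levels. At each of them the MCD libraries stood above the controls, as at every listed interval that was higher after MCD.

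**Figure D1:**
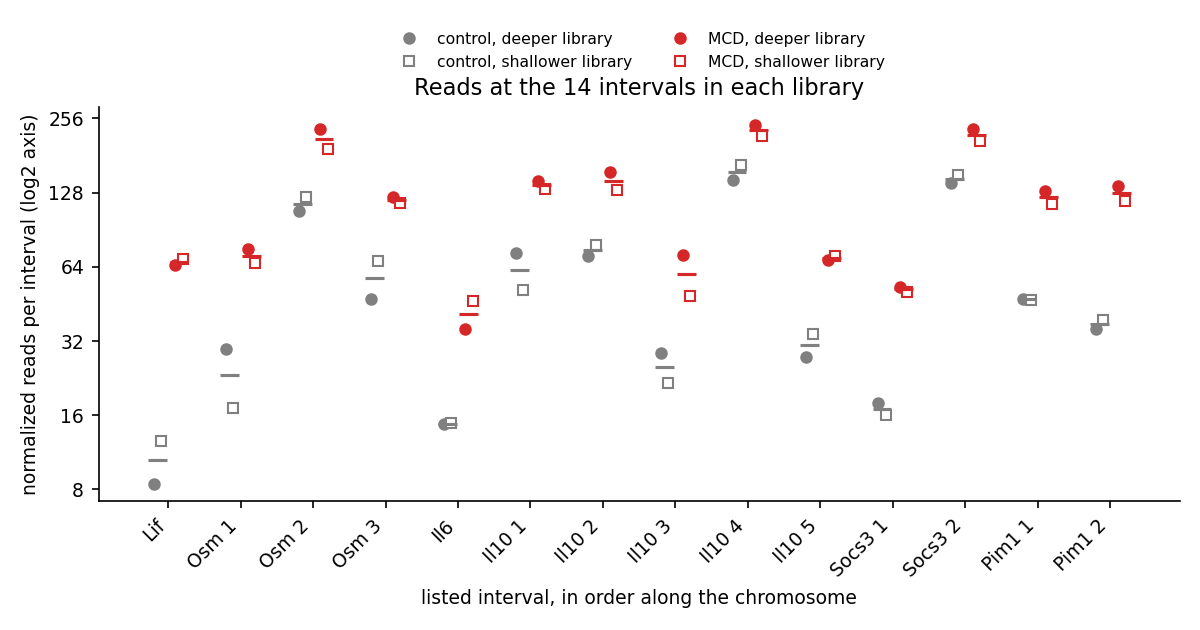
Normalized reads (log2 axis) at each of the 14 intervals in the deeper (circles) and shallower (squares) library of each condition, control in grey and MCD in red, with short lines for the authors' condition means. The MCD points lie above the control points at every interval, by the widest margin at Lif and the narrowest at the fourth Il10 interval.

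Socs3 is read on the minus strand of chromosome 11, and both of its intervals are intergenic and downstream. The first, chr11:117932349-117932549, is 36637 bp from the TSS. It had 18.0 and 16.0 normalized reads in control and 53.2 and 50.5 after MCD, a log2 difference of 1.61. The summed reads were 31 in control and 113 after MCD, and their ratio of 3.05 had an interval of 2.04 to 4.70. The second, chr11:117941535-117941735, is 27451 bp from the TSS and was far more open in control cells, with 139.5 and 150.5 normalized reads against 231.8 and 207.9 after MCD. Its log2 difference was 0.60. On the other side of Socs3, 20011 bp from the gene, a listed interval assigned to the neighbour Pgs1 was also higher after MCD, by 0.81.

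The Pim1 intervals, chr17:29434784-29434984 and chr17:29440085-29440285, are 55769 and 50468 bp upstream of the TSS. Both overlap the long non-coding RNA gene AC163629.2, which has a TSS inside the first. The first also overlaps the transcript gene AC163635.1. The first had 47.6 and 46.7 normalized reads in control and 129.9 and 114.6 after MCD, a log2 difference of 1.37. The second had 35.9 and 38.8 in control and 136.0 and 118.5 after MCD. With a log2 difference of 1.77 it was the next largest after Lif.

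At all 14 intervals both MCD libraries were above both control libraries, a separation also seen at 73.2% of all listed intervals, which is every interval that was higher after MCD. The distance from the higher control library to the lower MCD library ran from 0.40 on the log2 scale at the fourth Il10 interval to 2.38 at Lif, with a median of 0.92 against 1.14 over all intervals higher after MCD. A log2 difference of at least 1 was seen at 10 of the 14, against 57.3% of all listed intervals and 78.3% of those higher after MCD. The median difference was 1.21, below the median of 1.39 over the intervals higher after MCD. The median control level was 42.3 normalized reads, against 29.2 over the intervals higher after MCD and 44.7 over all listed intervals. The median MCD level was 120.7, against 78.6 and 71.9. In the plot of condition means the smallest listed differences are wider at low control levels, so level and difference are tied by the selection. No interval outside the authors' threshold is in the table, so none could be set beside these.

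**Figure D2:**
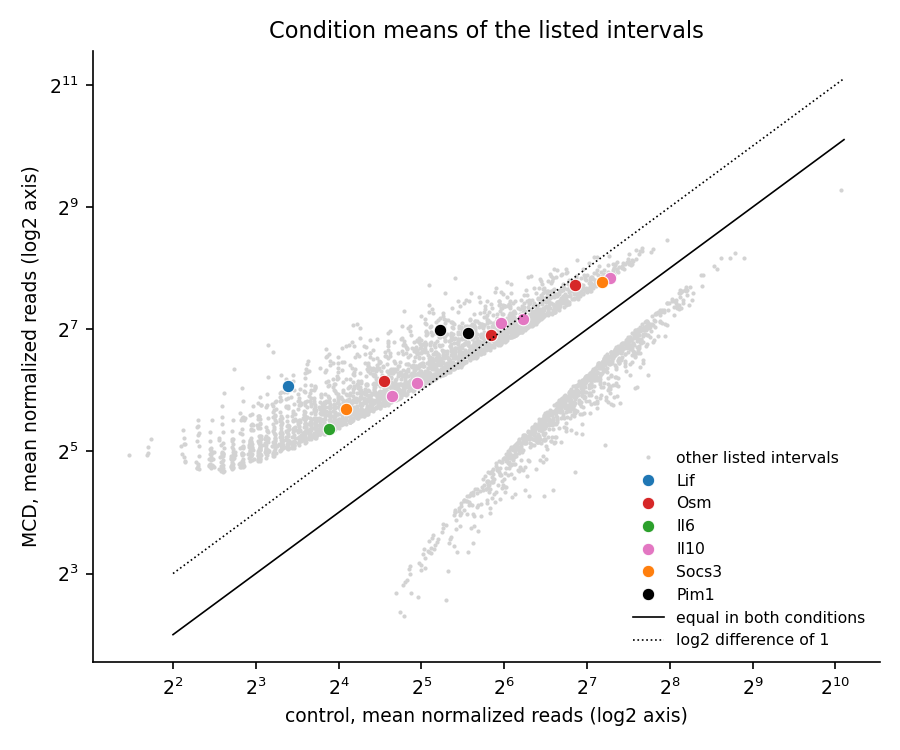
Mean normalized reads after MCD against those in control for all 3812 listed intervals (grey, both axes log2), with the 14 intervals coloured by gene, the solid line at equal values and the dotted line at a log2 difference of 1. All 14 lie above the solid line and 10 above the dotted line, and the empty band around the solid line holds intervals that were not listed.

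The interval of another gene whose pair of condition means was nearest to that of each member's largest difference was taken as a measure of likeness over the 2 conditions. For 5 of the members these genes were Ell2 for Lif, Ubxn11 for Osm, 4921504E06Rik for Il6, Klf5 for Socs3 and Gfod1 for Pim1. The distance between the pairs was 0.094 on the log2 scale for Lif and at most 0.018 for the others, so Lif had the least close match of these 5.

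The AP-1 motif, the letters to which FOS and JUN dimers bind, was present in 9 of the 14 intervals (64.3%). It was present in 52.8% of the intervals higher after MCD and 3.33% of those lower. Il6 had it, as did the third Osm interval, 4 of the 5 at Il10, both at Socs3 and the second at Pim1. The fourth Il10 interval held 3 copies, and each Socs3 interval held 2. The STAT motif was in 1 interval, the third of Il10, as TTCCAGGAA, where AP-1 letters were also present. Over all intervals higher after MCD it was in 0.860%, so most of the group was without the full letters, as were nearly all listed intervals. The κB motif was in 1 interval, the fourth of Il10, and in 8.67% of those higher after MCD. With 100 bp added on each side, AP-1 letters were found at 13 of the 14, against 64.8% of the intervals higher after MCD, and only the second Osm interval had none. The Lif interval, which held none of the 3 motifs itself, then had AP-1 letters starting 6 and 52 bp past its end. It also had 2 κB matches, of which the one in the stretch shown starts 41 bp before the interval. A match is a description of the reference letters and not a bound site. GC content had a median of 53.5% over the group, from 37.3% at Il6 to 66.2% at Lif, against 47.8% over all intervals higher after MCD.

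**Figure D3:**
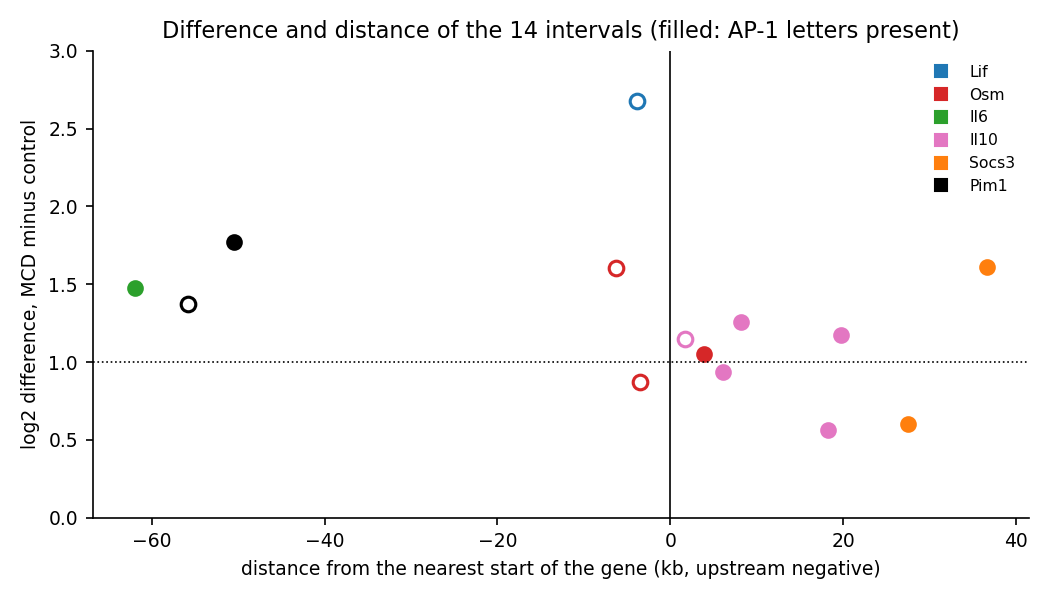
Log2 difference between MCD and control against the distance in kb from the nearest TSS of the assigned gene (negative upstream), for the 14 intervals coloured by gene. Filled points hold the AP-1 letters and open points do not, and the 5 Il10 points lie downstream while Il6 and Pim1 lie over 50 kb upstream.

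The gene named for an interval is the one with the nearest TSS, and no contact between them was measured. When every annotated gene was allowed, 7 of the 14 intervals stayed with a member, namely the 5 of Il10, the 1 of Lif and the third of Osm. The Il6 interval then went to Gm43386, whose TSS is 288 bp away, and the first and the second Osm interval went to Gm11956. Both Socs3 intervals went to Gm11726, and those of Pim1 went to the non-coding genes AC163629.2 and AC163635.1. With protein-coding genes alone all 14 stayed, and Lif gained the 2 intervals of Gm11959.

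Other genes of these pathways were taken from a list of 75 receptors, kinases, STATs, inhibitors, ligands and targets. At least 1 listed interval was assigned to 29 of them, or 38.7%, against 11.7% of the 22384 genes that could have one. Over their 54 intervals 77.8% were higher after MCD, close to the 73.2% of the whole table. The list was drawn up with earlier results of these data known, and gene and intergenic length, which sets how many intervals a gene can be nearest to, was not tested.

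The receptor genes were divided in direction. Il6st, which encodes gp130, had 1 interval 30603 bp upstream with 55.0 and 55.9 normalized reads in the deeper and the shallower control library and 19.2 and 16.5 after MCD, a log2 difference of -1.63. The controls were thus well above both MCD libraries. Lifr, the LIF receptor chain, had 2 intervals, with log2 differences of -1.40 and -0.88. Il10ra, the ligand-binding chain for IL-10, had 3 intervals upstream of its TSS, with log2 differences of -0.87, -1.26 and -1.04. These genes are grouped here by direction, so that all 6 of their intervals were lower follows from the grouping. Of the 10 receptor intervals 40% were higher after MCD, against 73.2% of all listed intervals, of which 1022 were lower. This difference was not tested. None of the 6 held the AP-1 letters, which were present in 3.33% of all intervals lower after MCD. Il6ra, the IL-6-binding chain, went the other way, with 114.1 and 107.2 normalized reads in control and 222.2 and 191.4 after MCD, a difference of 0.90. Il20rb, a receptor chain for IL-10 relatives, had 3 intervals that were higher by 1.14 to 1.99. The remaining 8 receptor genes of the list had no listed interval.

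Among the other ligands 5 of 13 (38.5%) had a listed interval, against 11.7% of the genes that could have one. Their 6 intervals were all higher after MCD, as were 73.2% of all listed intervals. Clcf1, a gp130 cytokine, had one 562 bp upstream of its TSS, with 33.8 and 36.5 normalized reads in control and 83.7 and 82.6 after MCD. Il11, a further gp130 cytokine, had one 1757 bp upstream, with a log2 difference of 1.18. Il27, Il22 and Cntf had differences from 0.90 to 1.46. Of the 4 kinases, Jak1 had 1 interval and Jak2 had 3, all higher, and one of Jak2 was 48 bp from its TSS with a difference of 0.78. Stat3 itself had no listed interval.

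Of the intervals of negative regulators 10 of 11 (90.9%) were higher, and of those of targets 17 of 22 (77.3%), against 73.2% of all listed intervals. The share at the targets was near that of the table. Of the 11 intervals of negative regulators 7 belonged to Ptprc, so their share rests largely on 1 gene. Cish, a relative of Socs3, had 8.45 and 7.98 normalized reads in control and 41.0 and 29.1 after MCD, a log2 difference of 2.09. Socs2 and Socs5 had 1 interval each, higher by 1.48 and 0.59. Ptpn1, which encodes a phosphatase of JAKs, had 1 interval 115047 bp from its TSS, higher by 1.64. Ptprc, which encodes the phosphatase CD45, was the one gene with both directions, 6 intervals higher and 1 lower. Of 25 further targets 11 (44%) had a listed interval, against 11.7% of the genes that could have one. Of these 11, 9 had higher intervals alone. The largest differences there were 2.70 at Cebpd, a transcription factor gene, from an interval 97049 bp away, and 2.67 at Bcl2l1, which encodes the survival factor BCL-XL, from one at 4306 bp. Nfil3 had 4 intervals, Myc and Cebpb 3 each, Etv3 2, and Junb, Il1rn and Arid5a 1 each. Ccnd1, the cyclin D1 gene, and Bcl6, a repressor gene, had lower intervals alone, 2 with differences of -1.41 and -1.04 and 3 with differences from -1.02 to -0.68, and all 5 were at least 87739 bp from the TSS. With every annotated gene allowed, 17 of the 75 genes had an interval. Il10ra and Lifr were then still lower alone, while Il6st and Il6ra no longer had one. Of the negative regulators only Socs2 kept an interval, and Cish, Ptpn1, Socs5 and Ptprc did not. Of the targets Cebpd, Cebpb, Myc and Bcl6 lost theirs, as did Il22 and Cntf among the ligands.

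**Figure D4:**
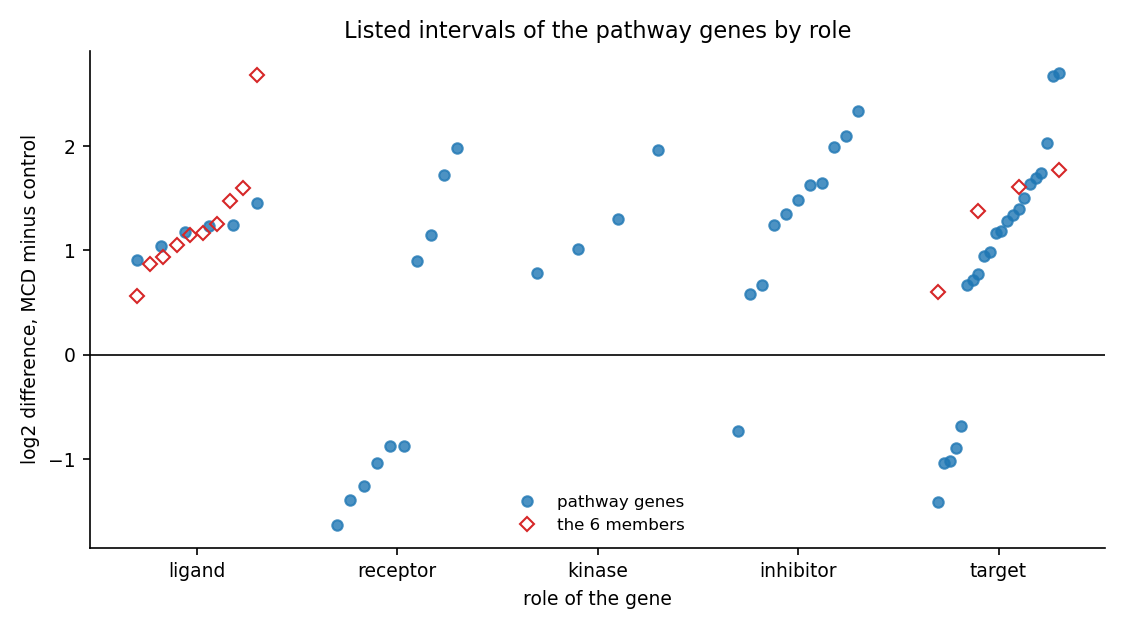
Log2 difference between MCD and control for the listed intervals of the ligands, receptors, kinases, inhibitors and targets of the pathway list (blue points), with the 14 intervals of the 6 members as red diamonds beside the ligands and targets they belong to. Points of a role are spread sideways in order of value, and the receptors hold 6 points below 0 and 4 above.

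A table of changed intervals cannot check the identity of the cells. Of the macrophage marker genes Csf1r and Adgre1 had 1 listed interval each and Lyz2 had 2, all lower after MCD, Spi1 had 1 that was higher, and Cd68 and Itgam had none. Their part in the results at the cytokine genes was not tested. Of the markers of T cells, B cells and fibroblasts, only Cd4 had one, lower after MCD.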

How the data were processed

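The authors measured 2 control and 2 MCD samples. Per their methods and the submitters' processing notes, reads were trimmed with cutadapt 2.6, aligned to GRCm38 (mm10) with Bowtie2 2.4.4, freed of duplicates with Picard, and given to MACS (MACS2 in the methods, MACS3 3.0.0 in the notes) and DiffBind for comparison. The Tn5 offset and the normalization are not given in the sources used here. The authors' deposited table holds 1 log2 value of mean normalized reads for each condition, and a fold change, p-value and FDR from the authors' own comparison, which were not used beyond the check that 0 rows have an FDR over 0.05.

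In every one of the 3812 rows, the mean of each condition was the mean of 2 whole read numbers times 2 constants (1.057 and 1.140 in control, 0.872 and 0.972 after MCD), within a tolerance of 1e-06. No other pair of constants, of 871 and 779 tried, fitted more than 30% and 7.50% of the low values. The reciprocals average 1, as library-size scaling gives, and read as depth they make the MCD libraries 1.19 times as deep. Which reads the authors' scaling was based on is not given in the sources used here. Recovery was tested on simulated data, where 100% of reads came back and 0% of perturbed values passed.

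Genes came from the nearest TSS among GENCODE M21 basic transcripts with an Entrez ID, and sequences from GRCm38, read with pysam 0.24.0. AP-1, STAT and κB motifs were searched on both strands, and calculations used Python 3.11.15 with pandas 2.3.3. All members and their intervals were named, with the pathway genes that had an interval and the nearest match of each member, except that 2 of these genes are not reported here. The members and lists were chosen with earlier results of these data known. The planned test on per-sample values was not run, because the deposited values are condition means alone. The rows were also selected on this contrast. Groups are therefore described by counts and medians, most of them beside those of all listed intervals or of all intervals higher after MCD. Alternatives were other gene sets, promoter widths, thresholds, motif letters and windows, scalings and leaving out each library.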

Additional observations from a re-analysis of the deposited data

How the results depend on the processing

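All 14 intervals stayed higher after MCD with the reads left unscaled and without each library in turn, both chosen after seeing the data, as was the use of all GENCODE transcripts with an Entrez ID, which left the 14 unchanged. The direction could not have changed without a library, because both MCD libraries were above both control libraries at all 14. Nor could it with unscaled reads, because the MCD libraries had the higher relative depth. These fixed outcomes are still among the 29 values counted below as having stayed. With every annotated gene allowed, 7 intervals remained assigned to members, all 7 higher, 5 by a log2 difference of at least 1, and 17 pathway genes had an interval. The median difference of 1.21 became 1.32 with protein-coding genes, 1.15 with every annotated gene, 1.16 with a control level of at least 4 on the log2 scale and 1.48 with unscaled reads. Without one library it ran from 1.15 to 1.40. A threshold of 1.5 left 4 intervals past it, and 100 bp more on each side gave 2 intervals with a κB motif. A promoter of 1 kb, measured to the TSS of the assigned gene, left 0. With every interval within 50 kb of a member's gene body the total was again 14 but the set differed, since Il6 and Pim1 had 0, Socs3 3, Il10 5, Osm 4 and Lif 6, some of them shared by Osm and Lif. Over each pairing of a reported value with an alternative, 29 values were counted as having stayed and 15 as having moved. Counts stayed when within 1.5 times the reported count. Every median that changed was counted as moved, even that of 1.24 without the shallower MCD library. The cause was not tested beyond what each alternative changes by construction. The table lists changed intervals alone, so intervals of these genes that did not pass, and the absolute depth, were not analysed here. Control levels under about 20 reads, as at Lif, Il6 and the first Socs3 interval, carry the widest counting error. No paired analysis was possible because the recovered libraries carry no sample number.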
